A study of Drosophila melanogaster with 3 samples.

Results

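Grainy head (Grh) binding was mapped at Ddc and ple, the genes for the enzymes that make dopamine for hardening and darkening the insect cuticle. The windows described run from 19100000 to 19135000 on 2L (Ddc) and from 6695000 to 6730000 on 3L (ple), in the dm3 build, and both genes were taken as known Grh targets. They hold 17 of the 13796 deposited peaks, 6 of the 1638 found with a mouse anti-Grh antibody and 11 of the 12158 found with a rabbit anti-Grh antibody. The Ddc window has 3 mouse and 7 rabbit peaks, and the ple window has 3 mouse and 4 rabbit peaks. The windows were set by position, not by the values of the peaks, though the loci were chosen with earlier results of these data known.

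Binding was assayed by ChIP-seq, in which DNA fragments bound by a protein are pulled down with an antibody and sequenced, in Drosophila melanogaster embryos. The embryos were of strain w1118 and 13 to 16 h old. All 3 libraries of the series come from such embryos and differ in the antibody, which was mouse anti-Grh, rabbit anti-Grh or rabbit IgG. There was 1 library per antibody, so no value below has a replicate error, and the IgG library was not analysed here. A whole embryo mixes epidermis with tissues that lack Grh, and weak binding in many cells cannot be told apart from strong binding in few.

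Grh is a transcription factor of the epidermis, trachea and other epithelia, and it activates genes that build and repair the cuticle barrier. The gene ple (pale, CG10118) encodes tyrosine hydroxylase, which turns tyrosine into L-DOPA, and Ddc (CG10697) encodes DOPA decarboxylase, which turns L-DOPA into dopamine. Dopamine derivatives then cross-link cuticle proteins. Both genes are switched on around puncture wounds in the embryonic epidermis, and Grh was found early on as a protein that binds control sequences of Ddc. In the RefSeq gene table for Release 6 of the genome, the neighbours of Ddc are CG10561 and Phb1 (a prohibitin), with amd, a relative of Ddc, beyond CG10561. The protein-coding neighbours of ple are CG8519 and dikar. Release 6 is another build than that of the peaks, so distances from peaks to genes are not given. The other tanning genes considered, Pu, y, e, b, t and stw, were not placed either.

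Peaks were deposited as points 2 bp wide, each with a score whose unit is not stated. A position below is the first base of the point, counted from 1. The order of a peak is its place in its own list by score, starting from the highest. Whether mouse and rabbit scores have a common scale is not known. Peaks of the lists were called matched where they lay within 250 bp of each other.

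The highest peak of the Ddc window with either antibody was at a single place, 2L at 19120891 in the mouse list and at 19120900 in the rabbit list, 9 bp apart. Its mouse score was 10.5, of order 108 among 1638 peaks, which is in the top 6.59%. Its rabbit score was 50.4, of order 138 among 12158, in the top 1.14%. The list medians were 5.27 for the mouse and 5.98 for the rabbit antibody. Among 2L peaks alone it was of order 25 with the mouse and 23 with the rabbit antibody. Of the 654 windows of 35 kb laid end to end along 2L, 24, or 3.67%, held a mouse peak scoring at least as high, and 23, or 3.52%, held such a rabbit peak.

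A weaker place lay beside it. The mouse peak at 19120350 was 541 bp to the left and scored 3.67 (order 1228), and its rabbit partner at 19120316 scored 6.66 (order 5311), 34 bp away. Over the whole lists, which differ in length, 20.2% of mouse and 53.2% of rabbit peaks had a neighbour of the same list within 1 kb.

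The third place of the Ddc window marked by both antibodies lay 11063 bp to the left of the highest mouse peak, at 19109828. This mouse peak scored 6.07 (order 567). The rabbit peak nearest to it, at 19109802, scored 18.6 (order 1203), 26 bp away. The distance between these places is longer than Ddc itself, which spans 3824 bp in the Release 6 annotation. Where they lie relative to Ddc was not determined.

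The rabbit peak at 19109802 had a lower rabbit peak on each side, at 19109616 with a score of 5.12 and at 19110043 with a score of 6.74. These side peaks lay 212 and 215 bp from the mouse peak. All 3 rabbit points carried consecutive numbers and a deposited rank that no other point had, so they may be points of 1 called region. Over the rabbit list, 1900 ranks were held in common by more than 1 point. Of these, 1343 were held by points that all lay within 1 kb (184 by 3 points), and 490 by points on 2 or more chromosomes. Elsewhere in the Ddc window, the rabbit peaks at 19133518 and 19114337 carried ranks held by 33 and 10 points. A rank in common therefore does not by itself mark 1 region. Of the 1756 rabbit peaks with a mouse partner, 1.31% had rabbit peaks within 250 bp on both sides.

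The remaining rabbit peaks of the Ddc window had no mouse partner. The peak at 19114337 scored 2.03, near the lowest score of the list (order 12111), and stood 4509 bp from any mouse peak. The peak at 19133518 scored 6.12 (order 5937) and was 12627 bp away. The latter was the member nearest to an edge of this window. The first rabbit peak outside it lay 105 bp beyond the right edge, at 19135106, with a score of 4.34 and the nearest mouse peak 14215 bp away.

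To its left, the Ddc window bordered a stretch with no peak. From the first rabbit peak of the window the next one to the left was 100228 bp away, and 38 of the 2052 gaps between rabbit neighbours on 2L, or 1.85%, were at least as long. For the mouse antibody the gap was 228254 bp, and 28 of 282 gaps, or 9.93%, were at least as long. The median gap on 2L was 3257 bp for the rabbit list. To the right, the next mouse peak was 34093 bp from the highest one, close to the middle of the mouse gaps on 2L.

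The highest peak of the ple window was again a single place for both antibodies, 3L at 6712752 in the mouse list and at 6712746 in the rabbit list, 6 bp apart. The rabbit score was 29.9 (order 471, top 3.87%). The mouse score was 6.0 (order 585, top 35.7%), closer to the middle of its list. A rabbit peak at least as high was found in 12.0% of the 691 windows of 35 kb along 3L, and a mouse peak in 13.7%. The highest place at ple thus stood lower in both lists than the highest at Ddc by score, on which the order rests.

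A second place marked by both antibodies lay 3795 bp to the right of it in either list. Its mouse peak at 6716547 scored 5.26 (order 821, top 50.1%), at about the mouse list median of 5.27. Its rabbit peak at 6716541 scored 17.3 (order 1346, top 11.1%), again 6 bp apart from the mouse peak. The distance between these 2 places is shorter than the 6170 bp that ple spans in the Release 6 annotation. Where the places lie relative to ple was not determined.

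The left part of the ple window held a rabbit peak without a mouse partner and a weaker one with a partner. Most rabbit peaks have no partner, since 14.4% of those of 3L were matched. The rabbit peak at 6702314 scored 11.8 (order 2437, top 20.0%) and had no mouse partner, the nearest mouse peak being 5728 bp away. The weaker rabbit peak at 6696719 scored 4.67 (order 8070) and did have a mouse partner, at 6696586 with a score of 3.79 (order 1199). These partners were 133 bp apart, the widest distance of the 6 pairs, and 98.5% of all 1607 pairs lay closer together.

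No peak lay in the right part of the ple window. The next rabbit peak was 18997 bp beyond the one at 6716541, past the edge, and 14.0% of rabbit gaps on 3L were at least as long. The first peaks outside the edges were rabbit peaks at 6693731, 1270 bp to the left (score 5.38), and at 6735538, 5537 bp to the right (score 2.28). The first mouse peaks outside were at 6686800 and 6737208, each with a rabbit peak within 15 bp.

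**Figure D1:**
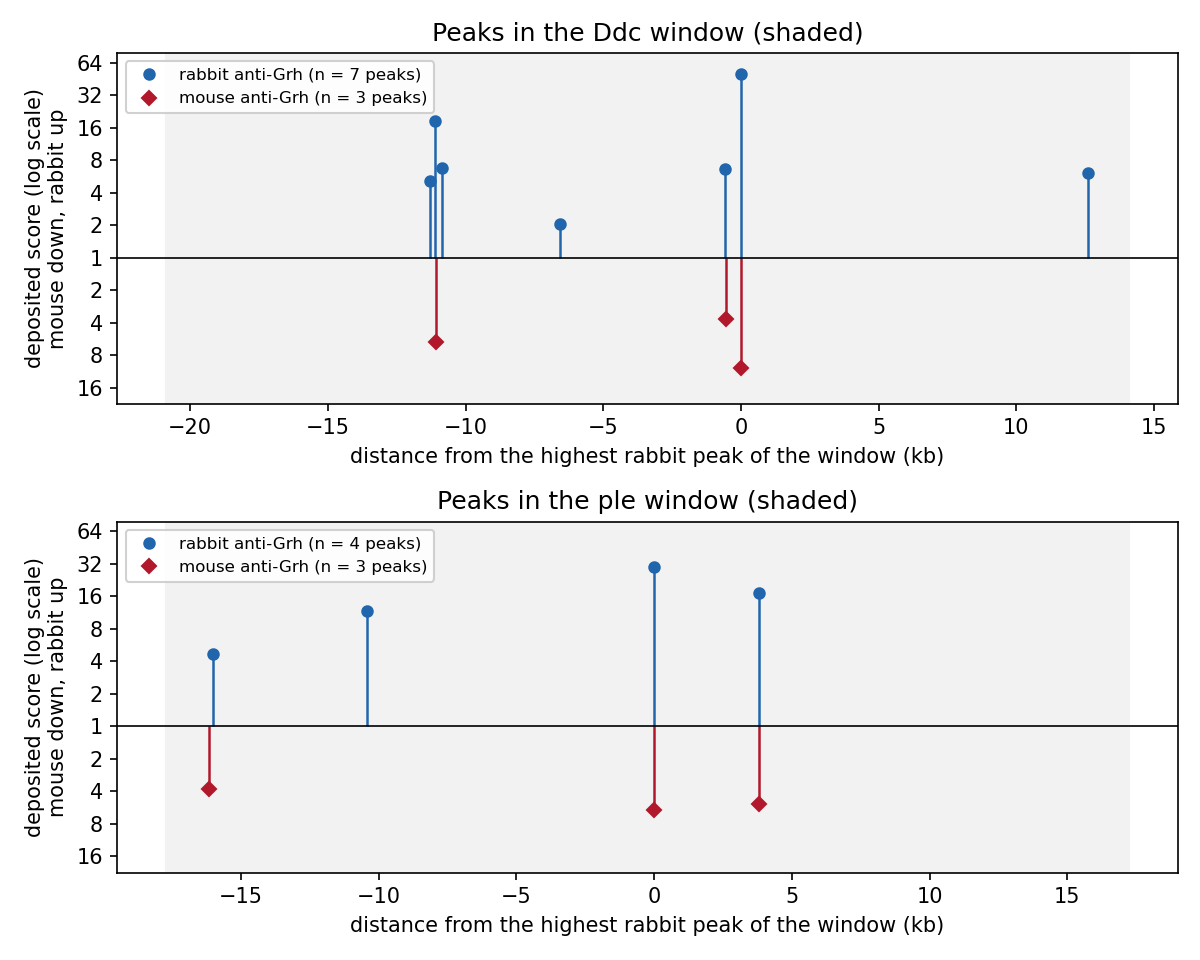
Deposited scores of the 17 peaks of the Ddc and ple windows, on a log scale with rabbit peaks upward and mouse peaks downward, against the distance in kb from the highest rabbit peak of each window (shaded). The highest mouse and rabbit peaks coincide at 0 in both windows, with scores of 10.5 and 50.4 at Ddc and of 6.0 and 29.9 at ple, and no peak of the ple window lies to the right of the place at 3795 bp.

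The counts of both windows were set beside those of windows laid end to end along their arms. At least 3 mouse peaks were found in 27 of the 654 windows of 2L, or 4.13%, and in 24 of the 691 of 3L, or 3.47%. The median window of either arm had 0 mouse peaks. The value for ple depended on the setting, and the count asked was that of the locus under each setting. The value was 0.682% with windows widened by 10 kb on each side, for at least 5 mouse peaks. With windows narrowed by 5 kb on each side it was 6.92%, for at least 2. In the upper 50% of the mouse list by score, where 1 of the 3 peaks was left, it was 19.1%, for at least 1. The peak at 6716547 missed this cut narrowly, with a score of 5.26 against a median of 5.27. For Ddc the value was 6.97% (at least 3), 2.51% (at least 3) and 3.98% (at least 2) under the same settings. With points within 1 kb chained into groups it was 8.1%, for at least 2 groups. For ple, chained points gave 2.17%, for at least 3 groups. At least 7 rabbit peaks, as at Ddc, were found in 15.1% of the windows of 2L, where the median was 2 and the highest 18. In the upper 50% by score the Ddc window kept 5 rabbit peaks, and 7.95% of windows had at least 5. With chained points it had 4 groups, and 24.0% of windows had at least 4. At least 4 rabbit peaks, as at ple, were found in 40.5% of the windows of 3L, where the median was 3 and the highest 20. The rabbit count of the ple window was thus 1 above the median of its arm. Widened by 10 kb on each side, the ple window had 10 rabbit peaks, and 20.7% of windows of that width had at least 10.

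The loci were picked as known targets, so windows that hold a mouse peak are a closer match. In a comparison added after the values were seen, 35 kb windows were centred on each mouse peak of the arm. Of these, 32.9% on 2L and 24.5% on 3L had at least 3 mouse peaks. At least 7 rabbit peaks were found in 50.9% of such windows on 2L, and at least 4 in 82.2% of those on 3L. A group of mouse peaks counts once per member here, so these shares lean towards groups. Of the windows laid end to end, 477 of 654 on 2L held no mouse peak and 27 held at least 3. On 3L, 468 of 691 held none and 24 held at least 3.

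The fullest windows of the same arms were elsewhere. For the mouse antibody they were 2L from 19425001 to 19460000 with 7 peaks, 2L from 3745001 to 3780000 with 5 and 3L from 19670001 to 19705000 with 5. For the rabbit antibody they were 3L from 21000001 to 21035000 with 20 peaks, 2L from 840001 to 875000 with 18, and 3L from 17955001 to 17990000 and from 18760001 to 18795000 with 17 each.

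**Figure D2:**
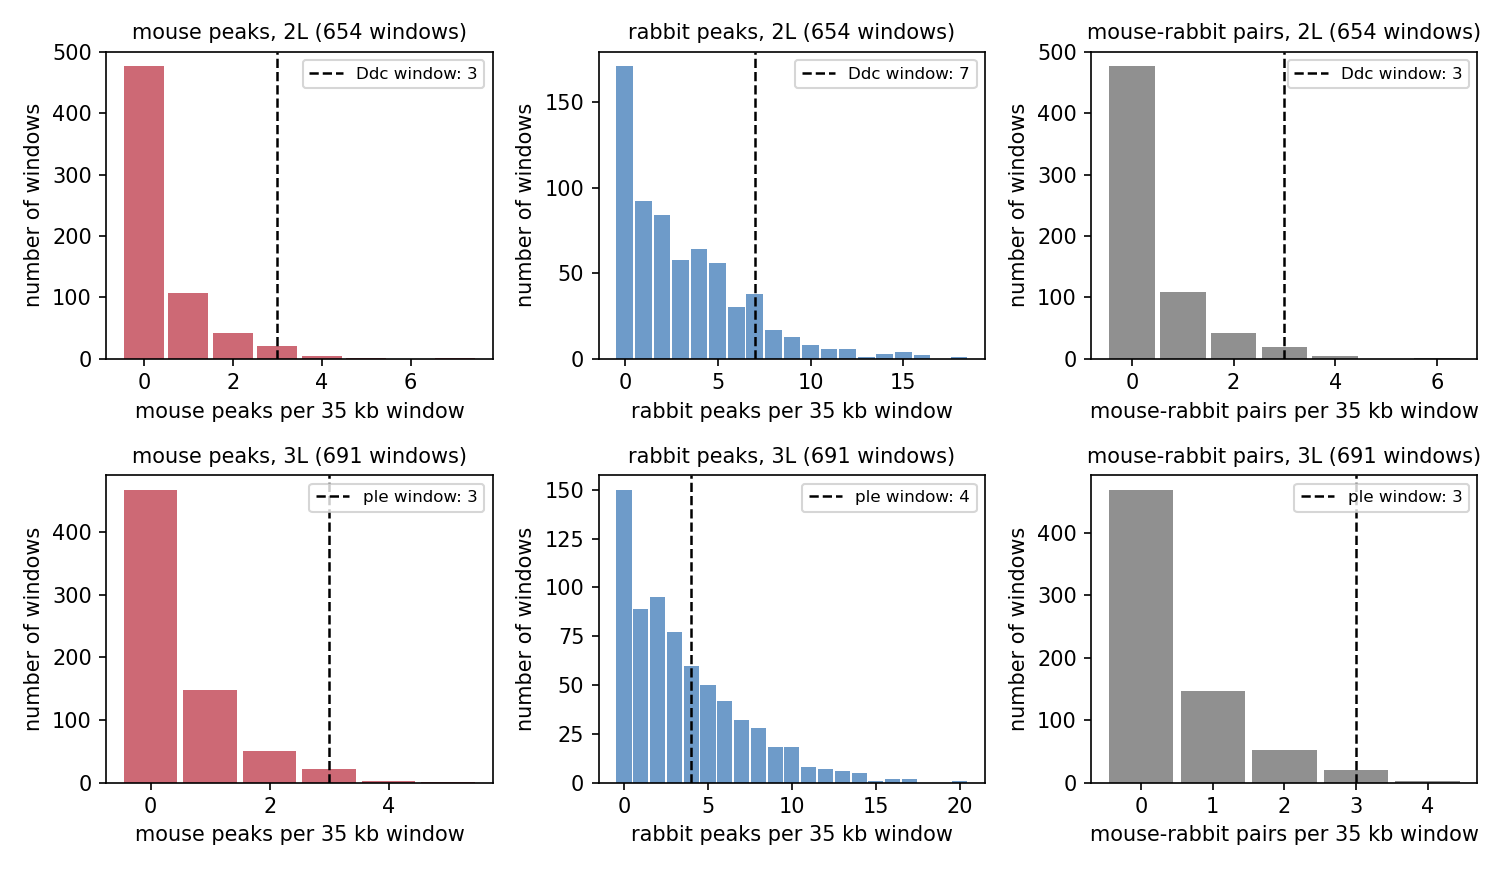
Number of 35 kb windows along 2L (upper row) and 3L (lower row) by the mouse peaks, rabbit peaks or mouse-rabbit pairs they hold, with the Ddc or ple window as a dashed line. The lines at 3 mouse peaks and 3 pairs lie to the right of the median of 0, while the line at 4 rabbit peaks for ple is next to the median of 3.

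All 6 mouse peaks had a rabbit peak within 250 bp (exact 95% binomial interval 54.1 to 100%, which covers counting error only). This is no feature of these loci, since 99.6% of the mouse peaks of 2L and 99.7% of those of 3L had one. Of the 11 rabbit peaks, 8 had a mouse peak, or 72.7% (39.0 to 94.0%), 5 of 7 at Ddc and 3 of 4 at ple. Over the arms the share was 14.6% of the rabbit peaks of 2L and 14.4% of those of 3L. At Ddc, 3 of the 5 matched rabbit peaks shared 1 mouse partner, and 3 of 7 were matched when 100 bp was asked. Peaks that share a partner need not be independent, as the interval for the rabbit peaks takes them to be.

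In other stretches with as many places marked by both antibodies, the matched share of rabbit peaks was lower, and rabbit peaks more numerous, at the median. These measures are tied, since for a given number of matched peaks fewer rabbit peaks make a higher share. A pair is a mouse and a rabbit peak at most 250 bp apart with no closer partner for either, and each locus had 3. Windows with at least 3 pairs made up 3.98% of 2L and 3.33% of 3L. Windows overlapping the loci were left out of what follows. In the 26 such windows of 2L the matched share of rabbit peaks had a median of 35.4%, and 1 window reached the 71.4% of Ddc. That share of Ddc includes side points that share a mouse partner with a stronger peak. At 100 bp Ddc had 3 of 7 matched, and the other windows were not counted at 100 bp. In the 22 such windows of 3L the median was 33.3%, and 3 windows reached the 75% of ple. The number of rabbit peaks had a median of 9 in those of 2L and of 10 in those of 3L, against 7 at Ddc and 4 at ple.

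The highest scores of the loci were then set beside those of the same windows. The highest rabbit score had a median of 26.9 on 2L (12.4 to 77.4), and 2 of 26 windows reached the 50.4 of Ddc. On 3L the median was 29.8 (11.8 to 65.5), and 11 of 22 windows reached the 29.9 of ple. The highest mouse score had a median of 7.13 on 2L, and 8 of 26 windows reached the 10.5 of Ddc. On 3L the median was 8.04, and 17 of 22 windows reached the 6.0 of ple.

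The matched rabbit peaks were then placed in their list by score. Divided into 10 equal parts by score, the rabbit list had a matched share of 56.3% in the highest part, 42.5% in the second and 22.0% in the third. The strongest rabbit peaks of both loci and the one at 19109802 fell in the highest part, and that at 6716541 in the second. The unmatched peak at 6702314 fell in the third. The matched peaks at 19120316 and 19110043 fell in the fifth part, where 5.35% were matched, and those at 19109616 and 6696719 in the seventh, where 2.38% were. Of these 4, those at 19109616, 19110043 and 6696719 lay 212, 215 and 133 bp from their mouse peak and were not matched when 100 bp was asked. The peaks at 19109616 and 19110043 also shared the mouse partner of the stronger rabbit peak at 19109802. The peak at 19120316 alone, 34 bp from its mouse peak, stayed matched at 100 bp. The unmatched peaks at 19133518 and 19114337 fell in the fifth part and in the lowest one, where 0.82% were matched.

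**Figure D3:**
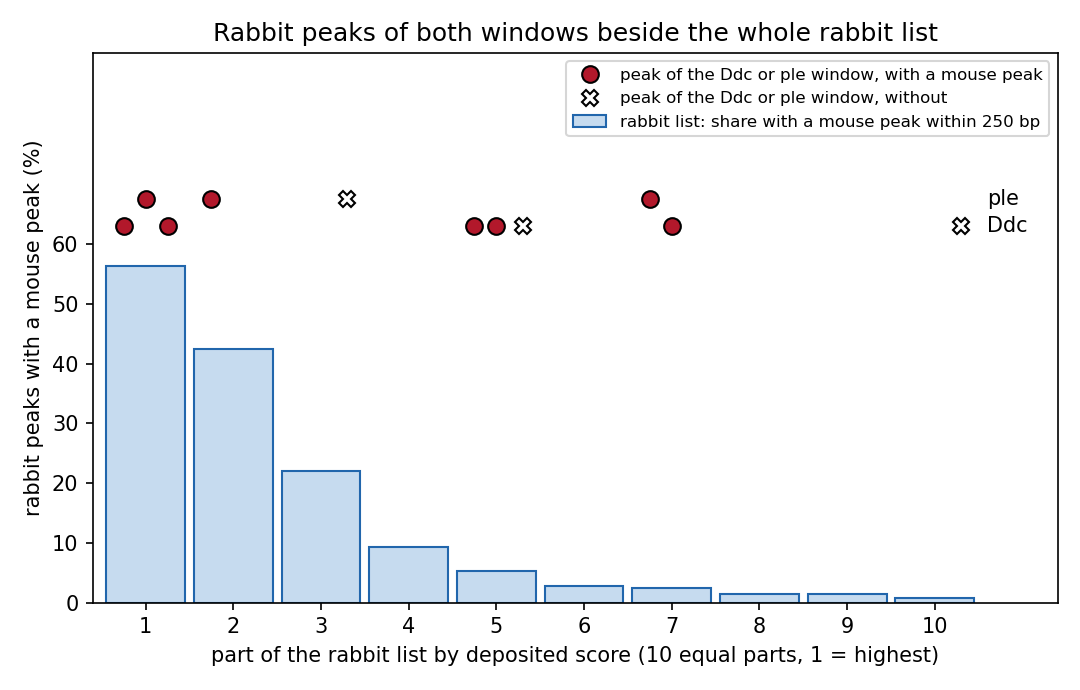
Share of rabbit peaks with a mouse peak within 250 bp in 10 equal parts of the rabbit list by score (bars), with the 11 rabbit peaks of the Ddc and ple windows drawn above the part they fall in (filled, with a mouse peak; crosses, without; spread sideways for legibility). Filled marks appear in parts 1 and 2, where 56.3% and 42.5% of the list were matched, and in parts 5 and 7, where 5.35% and 2.38% were; of the 4 in parts 5 and 7, 1 stays matched at 100 bp.

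Over the 6 pairs the order of the places by score was similar with both antibodies. The place at 19120891 was first in either list. Below it came 19109828 and then 6712752 with the mouse antibody, and these in opposite order with the rabbit antibody. The place at 6716547 followed with both. The places at 6696586 and 19120350 were the lowest with both, in opposite order. Over all 1607 pairs the rabbit score was 3.16 times the mouse score at the median (quartiles 2.50 and 4.04).

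The ratio of rabbit to mouse score varied among the places. It was 4.98 at 6712752 and 4.78 at 19120891, the highest places of the loci, and 11.5% and 13.3% of all pairs had a higher ratio. It was 3.28 at 6716547 and 3.06 at 19109828, within the quartiles. It was 1.82 at 19120350, below 94.5% of pairs. At 6696586 the ratio was 1.23, below 99.3% of pairs. The weakest place of each locus was thus the one where the rabbit score was lowest relative to the mouse score, a ratio that contains the rabbit score itself.

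**Figure D4:**
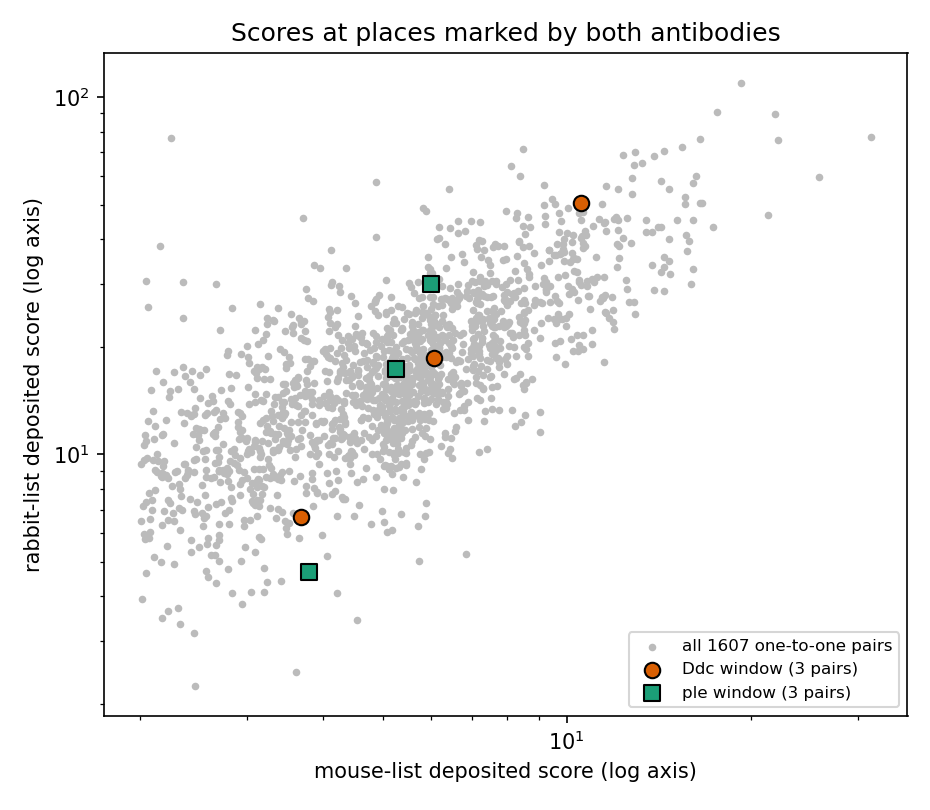
Rabbit against mouse deposited score (both axes log) for all 1607 one-to-one pairs (grey) and for the 3 pairs of the Ddc window (orange circles) and the 3 of the ple window (green squares). The Ddc place with scores of 10.5 and 50.4 lies towards the upper right, and the ple place with scores of 3.79 and 4.67 lies at the lower margin of the cloud.

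The number in the deposited peak names gave a second order, of unstated basis, which moved several of the peaks. The highest Ddc place had the number 381 of 1638 in the mouse list and 1313 of 12158 in the rabbit list, further down than by score. The highest ple place had the numbers 409 and 1393, so the loci were close to each other in this order. The deposited rank, also of unstated basis, was a smaller number at the highest ple place than at the highest Ddc place. It was 336 against 511 in the mouse list and 997 against 1251 in the rabbit list. The rabbit peak at 6696719 had the number 2119, far above its order of 8070 by score, and that at 19114337 had the number 10720. The mouse peak at 6716547 had the number 1504, behind that at 6696586 with 935, the reverse of their order by score.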

How the data were processed

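Per the submitters' processing notes, reads were aligned with Bowtie to dm3. The peak caller, its settings and whether it used the IgG library, like Bowtie's version, are not given in the sources consulted. Per the labels' protocols, chromatin was fixed in 1.8% formaldehyde and sonicated to between 0.1 and 0.5 kb. For each anti-Grh library the authors deposited a separate list with a score per peak; the score is the authors' own and was used to order and describe peaks. Read depth is unknown. It may set the length of each list.

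Windows of 35 kb were laid end to end from the first base of each arm, whose end was set at its last peak of either antibody; a last part window was left out. They cover the whole arm, the loci included, and stand in place of randomly drawn windows. No test was made, since each antibody has 1 library and peaks are not replicates. The loci, lists and comparisons were chosen with earlier results of these data known. All peaks of both windows are named. Promoter motifs were planned but not run, as no sequence was used here. Window counts and matching were tested on simulated data. The tools were pandas 2.3.3, NumPy 2.4.6, matplotlib 3.10.9 and SciPy 1.17.1 under Python 3.11.15.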

Additional observations from a re-analysis of the deposited data

How the results depend on the processing

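Of 52 alternative values for 12 results, 26 stayed within the counting interval (or, for counts, within 1.5 times) of the reported one. For the shares of windows, the count asked was that of the locus under the same setting. The share of windows with at least as many peaks as the locus moved as follows, each setting counting other windows or fewer points by construction. With windows widened by 10 kb on each side it was 6.97% (mouse) and 18.3% (rabbit) for Ddc, and 0.682% and 20.7% for ple. Narrowed by 5 kb on each side it was 2.51% and 11.8% for Ddc, and 6.92% for mouse peaks at ple. With points chained at gaps of up to 1 kb it was 8.1% and 24.0% for Ddc, and 2.17% and 28.4% for ple. In the upper 50% by score it was 7.95% for rabbit peaks at Ddc, and 19.1% (mouse) and 27.8% (rabbit) for ple, which keeps 1 of its 3 mouse peaks there. The ple mouse peak at 6716547 fell just below this cut. Over 2L, 2R, 3L, 3R and X the share was 18.9% for rabbit peaks at Ddc. Centred on mouse peaks, it was 32.9% and 50.9% for Ddc, and 24.5% and 82.2% for ple. The centred setting was chosen after seeing the data and counts grouped mouse peaks once per member. Matched rabbit peaks at Ddc numbered 3 within 100 bp, and 2 with the rabbit list shortened to the length of the mouse list by score, where only 2 of its 7 rabbit peaks have a place. No paired analysis was possible because there are no replicates, so none could be omitted in turn either. Depth is unknown, so absence from the mouse list does not show absence of binding.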
